A study of Homo sapiens with 16 samples.

Results

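A set of 10 genes that mark the luminal and basal lineages of the breast was followed through every library of a CUT&RUN study of histone marks. They were chosen by name as 8 luminal genes (ESR1, PGR, GATA3, FOXA1, ELF5, AGR2, AGR3 and TFF1) and 2 basal genes (TP63 and SOX10), and are 10 of the 20007 protein-coding genes that GENCODE release 44 lists outside the mitochondrial genome. A gene was read from the peaks called within 3 kb of any of its annotated start sites. The genes were picked with earlier results of these data known. The cells were MCF-10A, a nontransformed human breast epithelial line, so all values describe 1 cell line. They were exposed for 24 hours to vehicle (PBS) or to 5 mM octanoic acid (OA), a medium-chain fatty acid, and 3 vehicle and 3 OA libraries were made with each of an H3K4me3 and an H3K27me3 antibody. Untreated MCF-10A cells gave 2 more H3K4me3 libraries and 2 IgG libraries, labelled as positive and negative controls, for 16 libraries in all.

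H3K4me3 is deposited around the start sites of active or poised genes, and H3K27me3 is the mark of Polycomb repression. The mammary duct has an inner luminal layer, which holds the hormone-sensing cells and their progenitors, and an outer basal layer of contractile myoepithelial cells. ESR1 and PGR are the estrogen and progesterone receptors of the hormone-sensing cells. GATA3 and FOXA1 are transcription factors of the luminal program, and FOXA1 opens chromatin for the estrogen receptor. ELF5 directs alveolar and luminal progenitor cells, AGR2 and AGR3 are protein disulfide isomerases of secretory epithelium, and TFF1 is a secreted trefoil peptide and a classic estrogen target. TP63 specifies basal cells from an upstream (TA) and a downstream (ΔN) promoter, and SOX10 is a neural crest and mammary stem or basal-type factor.

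The bases before the canonical start sites differed in CpG dinucleotides, which are shown in capitals in the 6 sequences that the results turn on. They are RefSeq promoter sequences of GRCh38.p14, read 5′ to 3′ toward the gene and cut to the longest stretch outside annotated exons. RefSeq promoters were matched for 8 of the 10 genes, and those of TFF1 and SOX10 were not used here. H3K4me3 peaks lay on FOXA1 (chr14:37595349-37595499, minus strand) in all 6 vehicle and OA libraries and on GATA3 (chr10:8054438-8054687, plus strand) in all but OA replicate 1, whose peaks lie on either side. AGR2 (chr7:16805000-16805249, minus strand) was reached by them in OA replicates 2 and 3, PGR (chr11:101129889-101130063, minus strand) lay under H3K27me3 in vehicle replicates 1 and 2 and OA replicate 1, and AGR3 (chr7:16881988-16882233, minus strand) and the upstream start of TP63 (chr3:189631139-189631388, plus strand) carried neither mark.
GATA3: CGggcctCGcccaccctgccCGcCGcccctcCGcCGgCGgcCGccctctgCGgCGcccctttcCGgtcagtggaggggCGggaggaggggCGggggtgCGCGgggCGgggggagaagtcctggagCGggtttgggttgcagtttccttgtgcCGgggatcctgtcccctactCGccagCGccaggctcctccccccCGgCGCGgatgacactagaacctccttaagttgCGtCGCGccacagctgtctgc
FOXA1: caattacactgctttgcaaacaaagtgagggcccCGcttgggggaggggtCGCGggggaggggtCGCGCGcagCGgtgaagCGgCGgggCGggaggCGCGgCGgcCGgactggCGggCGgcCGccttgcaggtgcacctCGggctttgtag
AGR2: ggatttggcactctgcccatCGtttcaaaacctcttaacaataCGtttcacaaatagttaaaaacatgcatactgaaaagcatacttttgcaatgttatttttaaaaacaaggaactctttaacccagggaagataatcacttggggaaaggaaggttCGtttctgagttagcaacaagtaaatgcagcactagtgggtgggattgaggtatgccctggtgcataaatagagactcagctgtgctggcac
PGR: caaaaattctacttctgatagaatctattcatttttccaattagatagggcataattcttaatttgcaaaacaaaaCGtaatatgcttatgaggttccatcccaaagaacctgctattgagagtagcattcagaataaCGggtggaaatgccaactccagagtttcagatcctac
TP63: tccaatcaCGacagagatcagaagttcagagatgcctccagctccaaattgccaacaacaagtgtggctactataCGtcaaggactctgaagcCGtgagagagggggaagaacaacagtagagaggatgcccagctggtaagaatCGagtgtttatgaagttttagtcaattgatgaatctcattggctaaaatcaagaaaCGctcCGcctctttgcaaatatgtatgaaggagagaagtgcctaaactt
AGR3: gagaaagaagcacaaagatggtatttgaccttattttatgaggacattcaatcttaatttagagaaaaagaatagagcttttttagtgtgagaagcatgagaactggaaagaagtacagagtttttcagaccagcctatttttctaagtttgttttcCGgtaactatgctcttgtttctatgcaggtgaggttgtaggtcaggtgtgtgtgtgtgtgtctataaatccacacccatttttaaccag
The GATA3 sequence holds 10.4 CpG per 100 bases and the FOXA1 sequence 11.9, whereas the AGR2, PGR, TP63 and AGR3 sequences hold 1.2, 1.14, 2.40 and 0.407.

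The peak lists give no read totals, so depth was judged from the lists themselves. The H3K4me3 lists held 19953, 16381 and 16086 peaks in vehicle replicates 1 to 3 and 17988, 17975 and 21033 in OA replicates 1 to 3. Vehicle replicate 3 stood apart, with the shortest peaks (median 559 bp, against 736 to 1028 bp in the others) and the lowest common background under its peaks (0.450 reads, against 0.633 to 0.853). The H3K27me3 lists held 18801, 47648 and 28850 peaks in vehicle and 32363, 25540 and 9091 in OA, and OA replicate 3, the smallest of them, covered 3.50 Mb against 9.42 to 25.1 Mb in the others. A q-value of at most 1e-05 was reached by only 168, 243 and 150 of these H3K27me3 peaks in vehicle and 264, 85 and 49 in OA. A peak near a gene was called for H3K4me3 at 57.6% to 69.2% of all genes per library and for H3K27me3 at 4.64% to 15.7%. The share was 53.2% and 48.9% of genes in untreated H3K4me3 and 1.11% and 0.120% in IgG.

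The labelled cell type was checked against marker genes. H3K4me3 regions lay at 4 of 5 epithelial genes (EPCAM, CDH1, CDH3 and KRT5, not CLDN4), beside 66.9% of all genes. They were called in all 3 vehicle libraries at 2 of the 5 (CDH3 and KRT5), beside 56.8% of all genes. In all 3 OA libraries they were called at 4 of the 5, beside 63.1%. In IgG replicate 1 a peak lay near 1 of the 5 epithelial genes, beside 1.11% of all genes, and in IgG replicate 2 near 0 of the 5. Whether the epithelial genes differ from all genes was not tested. Of the leukocyte genes, CD3E and SPI1 had no H3K4me3 peak in any of the 6 libraries. PTPRC and CD68 had 1 short peak each within 3 kb. For CD68 a merged region called in all 6 libraries also reached within 3 kb. PECAM1, CDH5, TIE1 and VWF of the 5 endothelial genes had none, and neither did COL1A2, COL3A1, DCN and LUM of the 6 fibroblast genes. The other endothelial gene, KDR, was covered over 400, 0 and 0 bp in vehicle and 197, 385 and 789 bp in OA, and of the other fibroblast genes COL1A1 had a peak in 5 of 6 libraries and PDGFRA in all 3 OA libraries.

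H3K4me3 was called in every vehicle and OA library at the luminal transcription factors GATA3 and FOXA1 and less widely or not at all at the other 8 genes. A region, meaning peaks merged over the vehicle and OA libraries and called in at least 2 of those 6, was found at 4 of the 10 genes (GATA3, FOXA1, AGR2 and TP63), against 66.9% of all genes. It was called in all 3 vehicle libraries at 2 of 10 genes (GATA3 and FOXA1), where 56.8% of all genes were, and in all 3 OA libraries at the same 2 genes, where 63.1% were. PGR, ELF5, AGR3, TFF1 and SOX10 had no H3K4me3 peak within 3 kb in any of the 6 libraries, a pattern held by 29.3% of all genes. None of the 10 genes was called in all OA and no vehicle libraries (1.33% of all genes) or in all vehicle and no OA libraries (0.0200%). The map of covered length by gene and library shows these values beside H3K27me3. No IgG peak lay near any of the 10 genes. Without OA replicate 1, 4 genes (AGR2 and TP63 as well) were called in all remaining OA libraries, as were 65.3% of all genes. In these bulk libraries a mark in fewer cells and less of it per cell cannot be told apart.

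**Figure D1:**
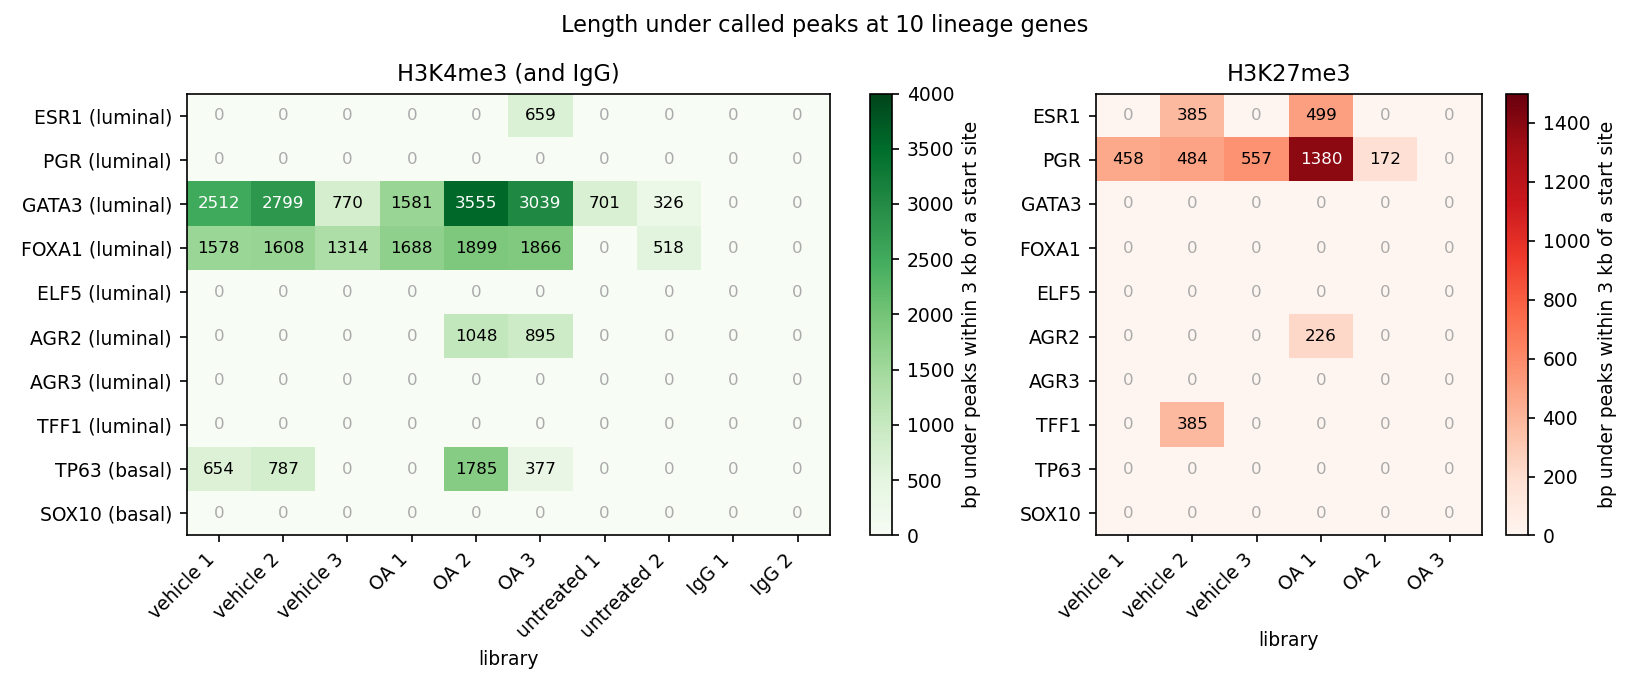
Length in bp under called peaks within 3 kb of the start sites of each gene (rows), in each library (columns), for H3K4me3 with the untreated and IgG controls on the left and for H3K27me3 on the right. GATA3 and FOXA1 have H3K4me3 in all 6 vehicle and OA libraries, AGR2 in OA replicates 2 and 3, and H3K27me3 is found mainly at PGR.

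GATA3 was marked around its canonical start in every vehicle and OA library (region chr10:8053603-8057206 of hg38, which holds 3 of its 5 start sites). The peaks covered 2512, 2799 and 770 bp in vehicle replicates 1 to 3 and 1581, 3555 and 3039 bp in OA replicates 1 to 3. The 2 groups overlap, and vehicle replicate 3 is the lowest. The mark was broken into 2 or 3 peaks in each vehicle library and in OA replicate 1, and was a single peak of 3555 and 3039 bp in OA replicates 2 and 3. The fold enrichment of its strongest peak, the authors' ratio of reads to local background, reached 3.80, 4.89 and 7.08 in vehicle libraries and 5.22, 5.01 and 4.56 in OA libraries. Both untreated libraries had a peak there, of 701 and 326 bp, with summits 1854 and 1524 bp past the canonical start. Start sites of the antisense gene GATA3-AS1 lie from 119 bp upstream of the region, and CUT&RUN does not separate strands, so a share of the mark from that gene cannot be told apart.

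FOXA1 carried 1 unbroken peak over its canonical start in each of the 6 libraries (region chr14:37594130-37596202). Its length was 1578, 1608 and 1314 bp in vehicle and 1688, 1899 and 1866 bp in OA, so that every OA peak was longer than every vehicle peak. Its fold enrichment over background came to 8.82, 10.9 and 10.2 in vehicle and to 7.03, 8.92 and 7.84 in OA, where the groups overlap by 1 library and OA has the lower mean (7.93 ± 0.950 against 9.99 ± 1.06, SD, n = 3 each). The summits held 47, 106 and 38 reads in vehicle and 44, 117 and 126 in OA, as recovered from the fold and the p-value of each peak. Of the untreated libraries, replicate 2 alone had a peak, of 518 bp and fold 5.34. The start site of TTC6, a protein-coding gene on the opposite strand, lies inside the same region, so the 2 promoters cannot be told apart.

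The rank of these peaks within their own lists lay higher in each OA library than in each vehicle library. This comparison of ranks was not planned and was added after the data were seen. The strongest FOXA1 peak by p-value ranked at percentiles 54.2, 63.4 and 67.2 of its list in vehicle and at 73.2, 77.0 and 79.5 in OA, a difference of 15 percentile points (exact permutation test, two-sided, p = 0.1, below which 3 against 3 libraries cannot go). In vehicle the strongest GATA3 peak ranked at 44.3, 41.0 and 46.4 on this scale, and in OA at 81.0, 53.0 and 57.3, a difference of 19.9 points (exact permutation test, p = 0.1). For both genes the groups do not overlap. Among the 11283 genes for which each of the 6 libraries had a peak of its own within 3 kb (not only a merged region reaching into it), 9.16% had a higher percentile in all OA than in all vehicle libraries and 7.48% the reverse, and 6.20% had a longer covered length in all OA libraries and 0.328% a shorter one. For fold enrichment 0.532% were higher in all OA libraries and 10.7% lower. When each list was reduced to its 16086 strongest peaks, FOXA1 still differed by 14.9 points with no overlap, whereas GATA3 overlapped (46.4 in vehicle replicate 3 against 44.1 in OA replicate 3). With these reduced lists 8.66% of genes had a higher percentile in all OA libraries and 10.3% a lower one, so the balance over all genes turned.

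**Figure D2:**
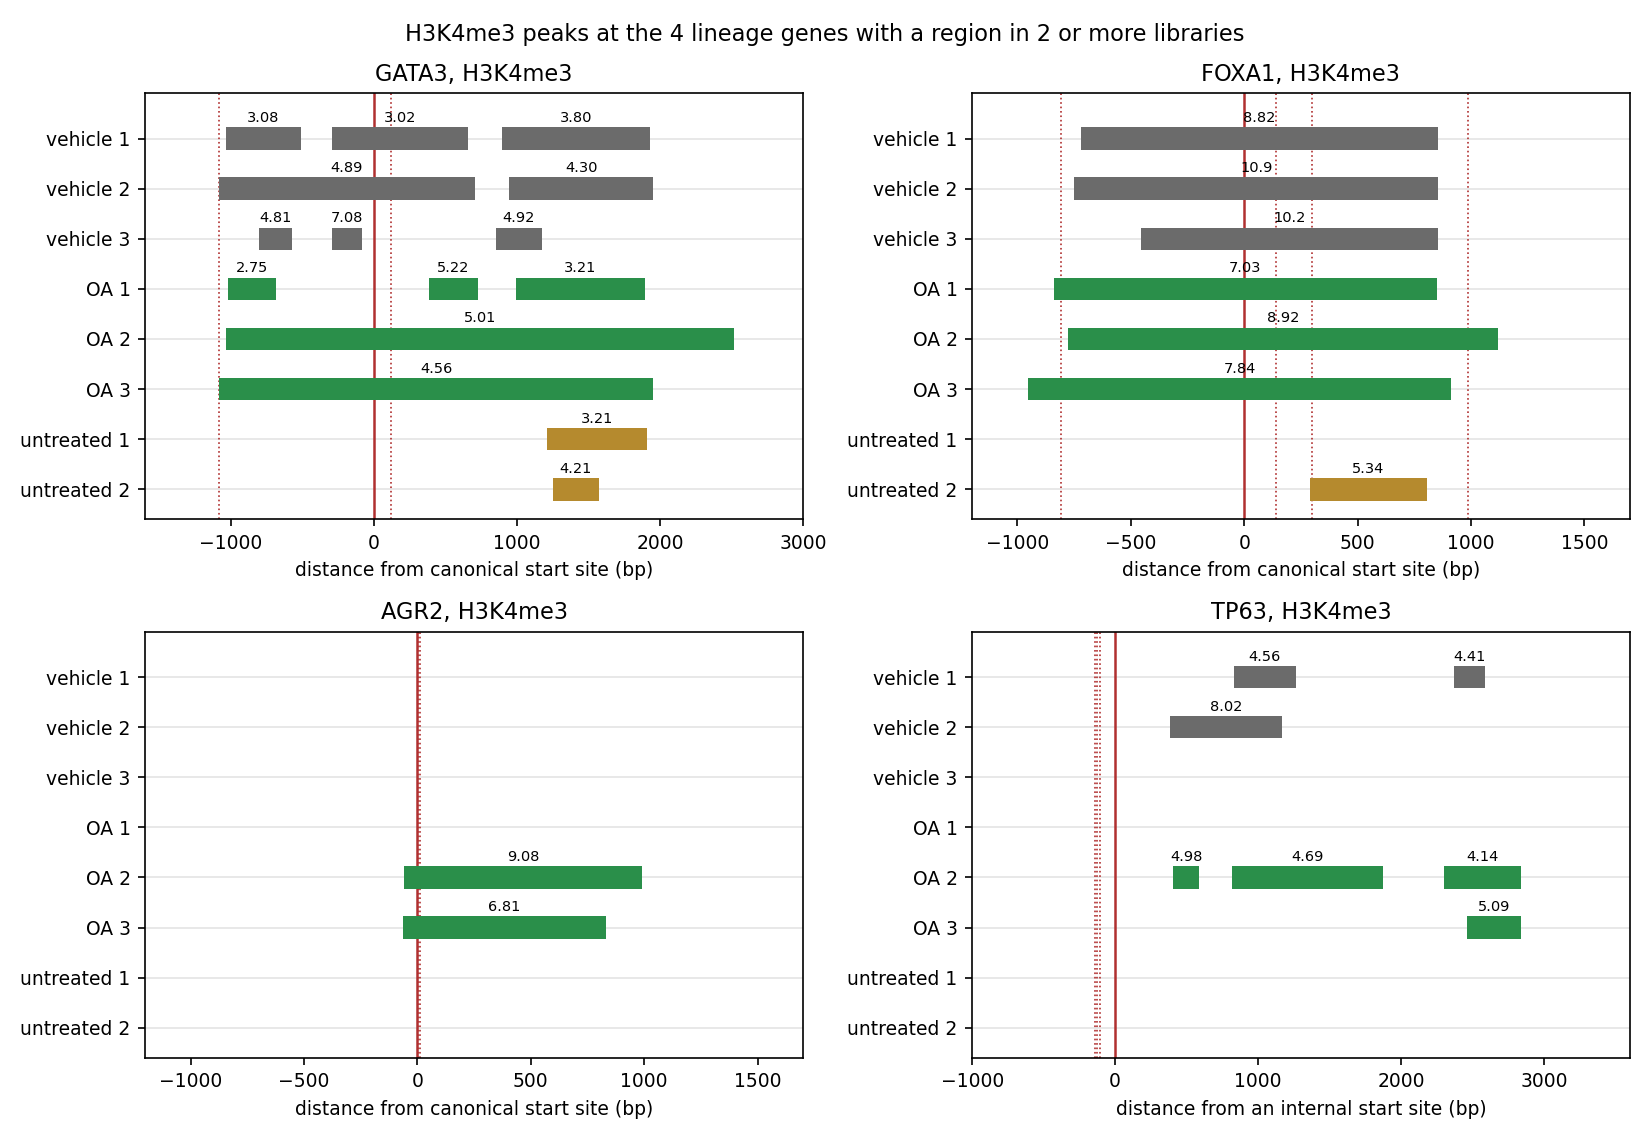
H3K4me3 peaks (bars, grey for vehicle, green for OA, yellow for untreated) at GATA3, FOXA1, AGR2 and TP63 in each library, by distance in bp from the canonical start site, or for TP63 from the last of its downstream start sites (solid red line; other start sites dotted). The number above each bar is the authors' fold enrichment. The AGR2 peaks appear in OA replicates 2 and 3 alone, and the TP63 peaks begin past the start site and are missing in vehicle replicate 3 and OA replicate 1.

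AGR2, the protein disulfide isomerase whose promoter sequence is shown above, was called for H3K4me3 in OA replicates 2 and 3 only (region chr7:16804010-16805062, over the canonical start and 2 others). In these libraries the peaks were 1048 and 895 bp long and 9.08-fold and 6.81-fold over background. They held 44 and 19 reads at the summit and ranked at percentiles 41.4 and 25.1 of their lists. OA replicate 1, the 3 vehicle libraries, both untreated and both IgG libraries had no peak there. The groups therefore overlap at 0 bp in OA replicate 1. Exactly this pair of libraries was called at 213 genes (1.06% of all genes), more than for any other of the 15 pairs, of which OA replicates 1 and 3 came next with 102 genes. AGR3, its neighbour in the same family, had no H3K4me3 peak, and the nearest region lay 33.5 kb from its canonical start, near AHR.

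The hormone receptors had little or no H3K4me3 near their start sites. ESR1 had a single peak of 659 bp in OA replicate 3 (chr6:151808090-151808748, in an exon 408 bp from the canonical start), with a fold of 5.99, 13 reads at its summit and a percentile of 15.4. A call in that library alone was found at 2.28% of all genes. Inside ESR1, 42.8 kb from the canonical start, a region at chr6:151763307-151764862 was called in 1 vehicle and all 3 OA libraries, beyond 3 kb of any annotated start site of a protein-coding gene. PGR had no peak in any library, and its nearest H3K4me3 region lay 442 kb away at ARHGAP42. For ELF5, TFF1 and SOX10 the nearest regions lay 74.0, 129 and 14.9 kb from the canonical start, the first of them at CAT and the second at RSPH1 and SLC37A1. The SOX10 neighbour was called in 1 vehicle and 1 OA library and lay near no protein-coding start site.

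TP63, the basal factor, was marked near its downstream promoter and not at its upstream one. There were 2 regions, chr3:189790183-189791676 and chr3:189792105-189792643, in an intron of the canonical transcript and 382 and 2304 bp past the last of 4 start sites between 189789659 and 189789801. The first was called in vehicle replicates 1 and 2 and OA replicate 2, and the second in vehicle replicate 1 and OA replicates 2 and 3. The covered length was 654, 787 and 0 bp in vehicle and 0, 1785 and 377 bp in OA, so the groups overlap. Fold enrichments ran from 4.14 to 8.02 and percentiles from 16.8 to 37.7, below the percentile of FOXA1 in the same library. No peak lay within 3 kb of the canonical start, 159 kb upstream, nor in the untreated libraries. The 2 libraries without a TP63 peak were vehicle replicate 3, which had the lowest background, and OA replicate 1, which had the highest, and the part that depth plays was not tested.

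H3K27me3 was called at few of the lineage genes, as at few genes in all. A region in at least 2 libraries was found at 2 of 10 genes (PGR and ESR1), against 13.8% of all genes. PGR was the 1 gene called in all 3 vehicle libraries (5.21% of all genes), and 0 of 10 were called in all 3 OA libraries (2.08%). None was called in all vehicle and no OA libraries (0.565%) or in all OA and no vehicle libraries (0.0600%). GATA3, FOXA1, ELF5, AGR3, TP63 and SOX10 had no H3K27me3 peak within 3 kb in any of the 6 libraries, as 74.7% of all genes did. No gene of the 10 had regions of both marks, against 4.72% of all genes, and 4 had neither, against 24.0%.

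PGR carried H3K27me3 over its canonical start (region chr11:101129472-101130356). The peaks there were 458, 484 and 212 bp long in vehicle replicates 1 to 3 and 885 bp long in OA replicate 1, with fold enrichments of 3.28, 3.09, 3.87 and 3.08, and OA replicates 2 and 3 had none. Their percentiles within the lists were 25.1, 9.55, 80.5 and 8.24. Their −log10 q values were 1.25, 1.22, 2.13 and 1.14, in lists that admit q-values up to 0.1. The peak of vehicle replicate 3 did not overlap those of the other vehicle libraries, from which it lay across the start site, and was joined to them by the long peak of OA replicate 1. Without that library, 0 of the 10 genes had an H3K27me3 region in all 3 vehicle libraries, beside 5.13% of all genes. The start site of the antisense gene PGR-AS1 lies 395 bp from the region. Another 5 H3K27me3 regions near internal PGR start sites were each called in a single library.

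**Figure D3:**
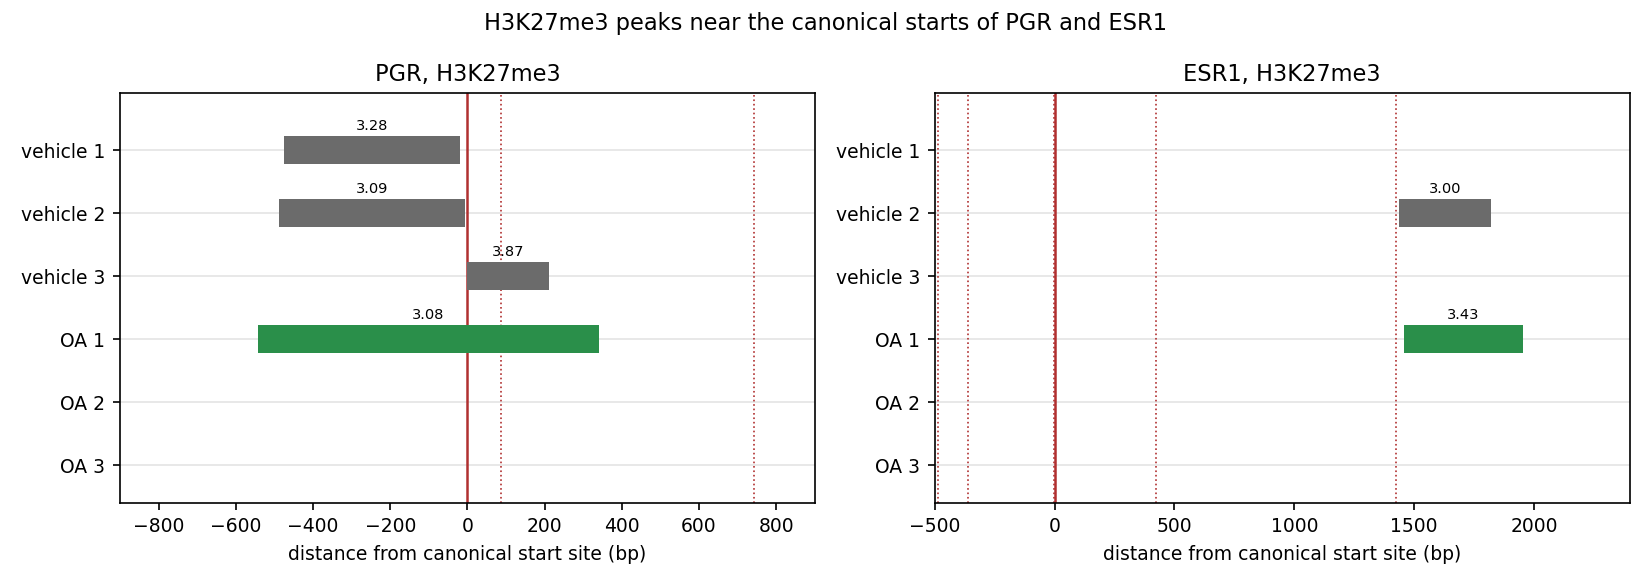
H3K27me3 peaks (bars, grey for vehicle, green for OA) near the canonical start sites of PGR and ESR1 (solid red line at 0, other start sites dotted) in each library, by distance in bp. Numbers are the authors' fold enrichments, and the PGR peak of vehicle replicate 3 lies on the other side of the start from those of vehicle replicates 1 and 2.

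ESR1 had an H3K27me3 region in an intron 1439 bp from its canonical start (chr6:151809121-151809637), called in vehicle replicate 2 (385 bp, fold 3.00) and OA replicate 1 (499 bp, fold 3.43). AGR2 had a peak near an internal start site, 6578 bp from the canonical one, in OA replicate 1, and TFF1 had one 2616 bp from its start in vehicle replicate 2. The GATA3 locus held a region just outside the 3 kb limit, 4453 bp from the canonical start (chr10:8049524-8050235), called in 2 vehicle and 1 OA libraries. It covered a further RefSeq start site of GATA3 at 8049854. Inside AGR3, 16.6 kb from its start, a region at chr7:16864267-16865365 was called in all 3 vehicle and 1 OA libraries.

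No gene of the 10 passed a test of covered length between OA and vehicle. The test was limma on log2 of the covered length after adding 100 bp, over all genes with a peak in at least 2 of 6 libraries, with Benjamini-Hochberg adjustment. For H3K4me3 13433 genes were tested and 0 (0%) passed an adjusted p of 0.05, with 691 at an unadjusted p under 0.05, of which 681 were longer in OA. For H3K27me3 1 of 3243 genes passed (0.0308%), the synaptotagmin gene SYT2, which differed by -3.52 ± 0.74 (log2, SE, limma adjusted p = 0.00621). This call was lost under the replicate block, equal peak numbers, the 1 kb window and 10 bp added, and without any 1 vehicle replicate or OA replicate 3. The median gene shifted by 0.16 for H3K4me3 and by -0.57 for H3K27me3 on the log2 scale, so the values below are read against those shifts. They became -0.04 without vehicle replicate 3 and -0.14 without OA replicate 3, respectively. FOXA1 differed by 0.26 ± 0.16 (log2, OA over vehicle, SE, limma adjusted p = 0.969), from 1500 ± 162 to 1818 ± 114 bp (SD, n = 3 each). GATA3 differed by 0.52 ± 0.50 (limma adjusted p = 0.975), from 2027 ± 1098 to 2725 ± 1024 bp, and by -0.04 without vehicle replicate 3. TP63 differed by 0.14 ± 1.24 (limma adjusted p = 0.999), from 480 ± 421 to 721 ± 941 bp, and by -0.87 without vehicle replicate 3 and -0.89 without OA replicate 2.

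For AGR2 the vehicle libraries are at 0 bp, so no fold can be given. On the scale with 100 bp added the difference was 2.28 ± 1.01 (SE, limma adjusted p = 0.969), and it became 4.41 when 10 bp were added instead. Leaving out OA replicate 1, which had no peak, gave a limma adjusted p of 0.0825, and leaving out each other library gave limma adjusted p from 0.644 to 1.00. In H3K27me3, PGR differed by -0.80 ± 1.21 (limma adjusted p = 0.953), from 500 ± 51.3 to 517 ± 752 bp (SD, n = 3 each), and by 0.08 without OA replicate 3. The difference of the mean lengths and that of the logarithms have opposite signs, since OA replicate 1 held 1380 bp and OA replicates 2 and 3 held 172 and 0 bp. ESR1 differed by 0.10 ± 1.05 (limma adjusted p = 0.999), a value that turned negative without vehicle replicate 1 or 3 or OA replicate 1.

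Wider lists of lineage genes, none of which holds the 10 genes, showed how far these patterns were shared. H3K4me3 was called in all 3 vehicle libraries at 7 of 17 hormone-sensing luminal genes (41.2%), 1 of 10 luminal progenitor genes (10%) and 11 of 18 basal genes (61.1%), beside 56.8% of all genes. In OA the counts were 10 of 17 (58.8%), 3 of 10 (30%) and 12 of 18 (66.7%), beside 63.1%. Without vehicle replicate 3 the vehicle counts were 8, 2 and 13, and the count over all genes was 12350 against 11360 with it. The vehicle libraries each had a peak at 72.2%, 77.8% and 66.7% of the basal list, 58.8%, 47.1% and 47.1% of the hormone-sensing list and 30%, 20% and 10% of the progenitor list. Over all genes the shares in these libraries were 64.4%, 62.2% and 57.6%. A single H3K27me3 region was called in all 3 vehicle libraries at 1 of 17 hormone-sensing genes (5.88%), 3 of 10 progenitor genes (30%) and 0 of 18 basal genes, beside 5.21% of all genes, and in all 3 OA libraries at 0 genes of each list, beside 2.08%. In at least 2 libraries such a region lay at 5 of 17, 3 of 10 and 0 of 18, beside 13.8%. In IgG replicate 1 a peak lay at 1 of the 18 basal genes (5.56%), beside 1.11% of all genes. It had a peak at 0 of the 17 hormone-sensing and 0 of the 10 progenitor genes, and IgG replicate 2 at 0 genes of each list. These counts are descriptions, and the lists were not tested against each other.

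**Figure D4:**
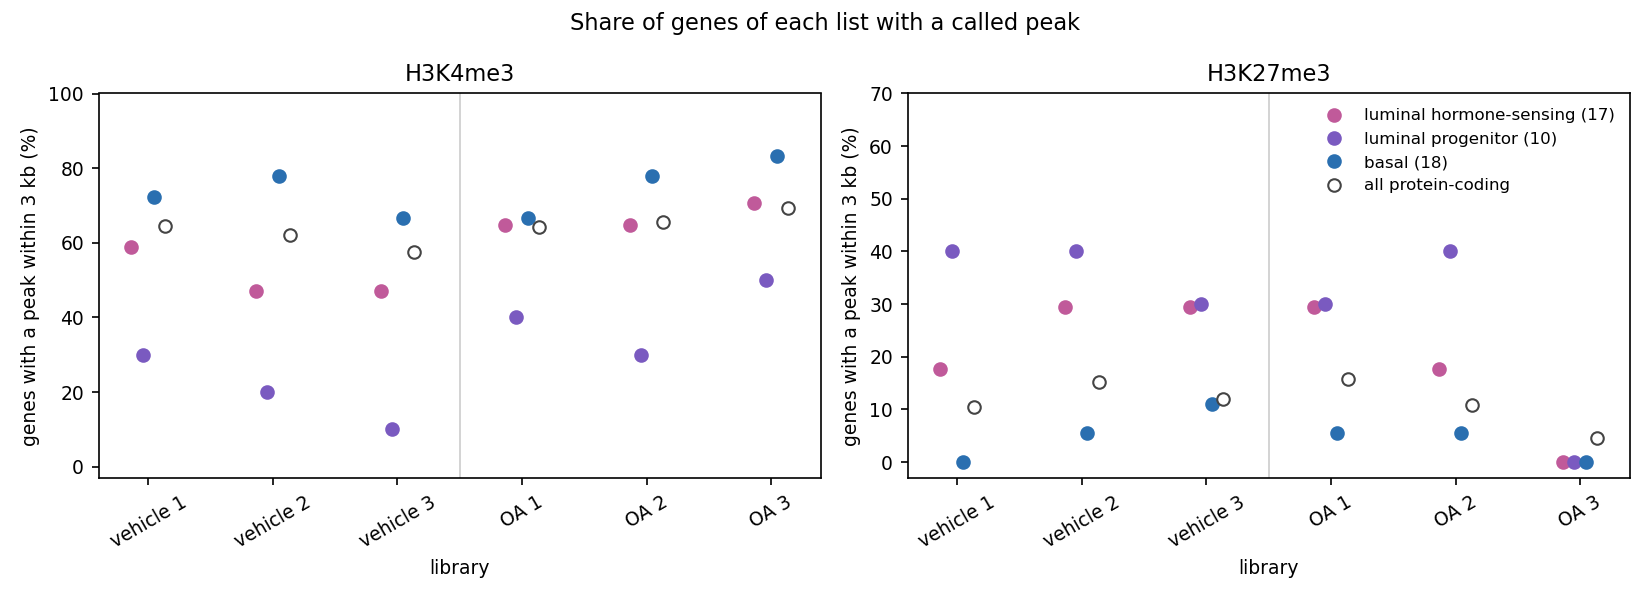
Share of the genes of 3 lineage lists, and of all protein-coding genes (open circles), with a called H3K4me3 (left) or H3K27me3 (right) peak within 3 kb, in percent, for each vehicle and OA library. The basal list is above all genes for H3K4me3 and below them for H3K27me3 in each library, and the progenitor list is below all genes for H3K4me3.

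The hormone-sensing genes with the widest H3K4me3 in vehicle were KRT8, a luminal keratin, STC2, a secreted estrogen-responsive glycoprotein, and AREG, an epidermal growth factor receptor ligand. KRT8 was covered over 3083, 2742 and 1316 bp in vehicle and 2790, 2918 and 3280 bp in OA. For STC2 the values were 2125, 2352 and 1699 bp in vehicle and 2273, 2348 and 2327 bp in OA, and for AREG 2089, 2825 and 1046 bp against 1548, 2191 and 2030 bp. In all of these the groups overlap. The widest progenitor genes had shorter marks, with vehicle means of 609 ± 322 bp for CD14, 436 ± 441 bp for ALDH1A3 and 67.7 ± 117 bp for SLPI (SD, n = 3). SLPI, a secreted protease inhibitor, was covered over 203, 0 and 0 bp in vehicle and 484, 300 and 1245 bp in OA, and was the 1 gene of the 3 lists with a region called in all OA and no vehicle libraries, its vehicle peak lying in a separate region (limma adjusted p = 0.677).

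Among basal genes the widest were VIM, the mesenchymal intermediate filament, LAMB3, a laminin of the basement membrane, and ITGA6, its integrin receptor. VIM was covered over 2406, 2361 and 1987 bp in vehicle and 1577, 2126 and 2523 bp in OA, and ITGA6 over 2513, 2235 and 961 bp against 2031, 2140 and 2168 bp. LAMB3 had 2744 and 3307 bp in vehicle replicates 1 and 2 and 0 bp in replicate 3, and 1333, 2396 and 1957 bp in OA. KRT14, the basal keratin, was picked out after its values were seen: it had 1121 and 747 bp in vehicle replicates 1 and 2 and 0 bp in vehicle replicate 3 and all OA libraries (limma adjusted p = 0.969). It was not typical of its list. Of the 15 basal genes tested for H3K4me3, 12 had a positive difference and 3, KRT14 among them, a negative one. Their median was 0.31 (log2, OA over vehicle), and 0 passed the threshold. KRT14 and KRT8 have close copies in the genome, and how reads shared with them were placed is not given in the sources used here.

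Genes with a single H3K27me3 region called in all 3 vehicle libraries, likewise named after their values were seen, were ANKRD30A of the hormone-sensing list and KIT, LTF and PROM1 of the progenitor list. CITED1 of the hormone-sensing list also had peaks in each vehicle library, of 878, 1559 and 336 bp in all, but no single region was called in all of them, and it had 665, 0 and 0 bp in OA. PROM1, a stem and progenitor cell surface protein, was covered over 2059, 2495 and 1671 bp in vehicle and 1054, 1552 and 0 bp in OA (limma adjusted p = 0.690). KIT, the stem cell factor receptor, was covered over 1144, 891 and 1143 bp in vehicle and 537, 174 and 0 bp in OA (limma adjusted p = 0.690). For both genes every OA library was below every vehicle library, as for 9.34% of the genes tested. LTF, the milk protein lactoferrin, had 1088, 742 and 904 bp in vehicle and 1121, 1325 and 0 bp in OA. The 0 in OA replicate 3 was shared by every gene of the 3 lists, and that library had the fewest H3K27me3 peaks. Without it 2 of the progenitor genes, against 0 with it, had an H3K27me3 region in all remaining OA libraries, and over all genes the count was 1144 against 416.

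Of the fibroblast markers COL1A1 and PDGFRA, and of the endothelial markers KDR, had a higher mean covered length in OA, and none of them passed the test. Of all genes tested 78.0% had a positive difference, with a median of 0.16 (log2) that became -0.04 without vehicle replicate 3, and KDR differed by 1.56 ± 0.83 (SE, limma adjusted p = 0.969). The 6 fibroblast genes summed to 302, 454 and 0 bp in vehicle and 826, 1384 and 1925 bp in OA, with COL1A1 the longest and COL1A2, COL3A1, DCN and LUM at 0 in all 6 libraries. PDGFRA had 0 bp in each vehicle library and 389, 399 and 589 bp in OA (limma adjusted p = 0.334). The 5 epithelial genes summed to 5541, 5653 and 1856 bp in vehicle and 5390, 5576 and 6437 bp in OA, with vehicle replicate 3 again the lowest. Their part in the values of the lineage genes was not tested.

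The CpG content of the promoters ran beside the H3K4me3 calls over all genes. In the 300 bases around a RefSeq start site (250 before it and 50 after), the median over 35116 promoters was 14.0 CpG. Of 3875 promoters of protein-coding genes with 0 to 4 CpG, 0.774% had an H3K4me3 peak over them in all 6 libraries and 92.9% in none, whereas of 5214 with 20 to 29 CpG these shares were 64.9% and 15%, and of 6306 with 30 or more they were 63.2% and 11.4%. FOXA1 with 34 and GATA3 with 29 CpG at the canonical start were in the CpG-rich classes. H3K4me3 peaks lay over this FOXA1 promoter in all 6 libraries and over this GATA3 promoter in 3 vehicle and 2 OA libraries. AGR2 with 6, PGR and the upstream TP63 promoter with 7 each, ELF5 with 2 and AGR3 with 1 were in the CpG-poor classes. At other start sites of the same genes, 2 further PGR promoters with 15 and 17 CpG and 3 further GATA3 promoters with 16, 18 and 16 CpG had no H3K4me3 peak over them. The GATA3 promoter at 8053641, with 36 CpG, had such peaks in 2 vehicle and 3 OA libraries, and that at 8060457, with 5 CpG, had none. A peak over the promoter in all 6 libraries was found at 5.66% of promoters with 5 to 9 CpG, and 77.9% of them had no peak in any library. ESR1 had 17 CpG at its canonical start, a class in which 51.4% of promoters were called in all 6 libraries and 26.3% in none, and it had no call there. H3K27me3 in at least 2 libraries lay over 3.42% of promoters with 5 to 9 CpG, the class of PGR, and over 1.06% of those with 30 or more.

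**Figure D5:**
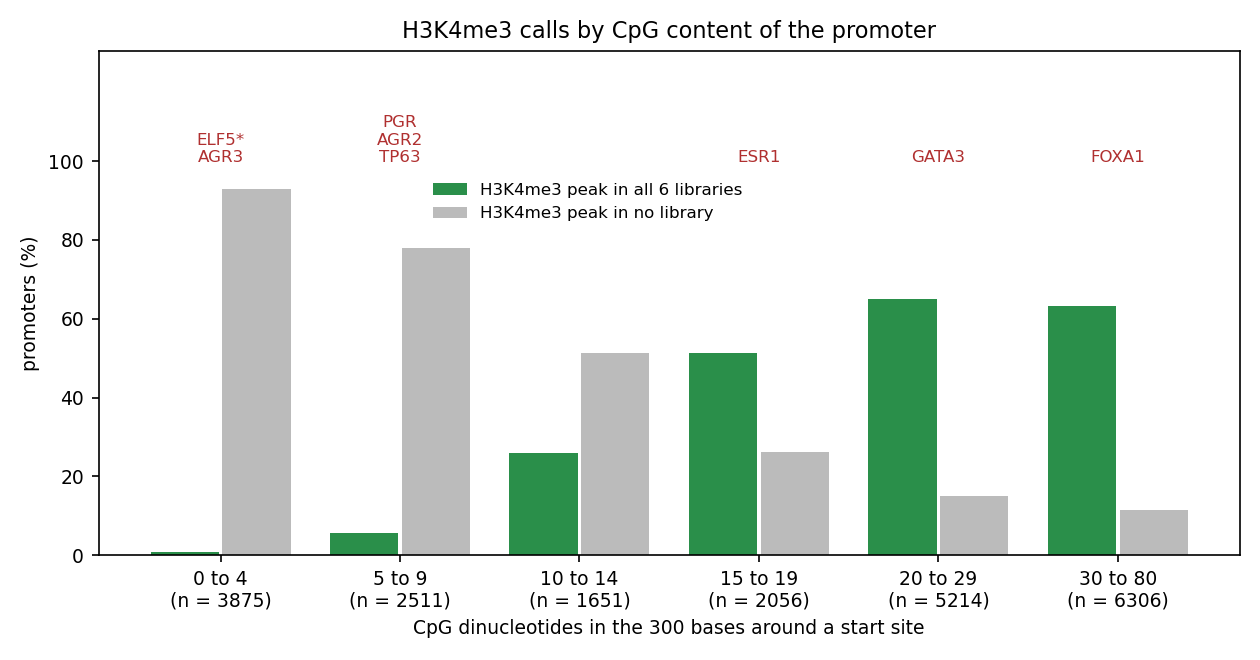
Share of RefSeq promoters of protein-coding genes with an H3K4me3 peak in all 6 vehicle and OA libraries (green bars) or in none (grey bars), in percent, by the number of CpG dinucleotides in the 300 bases around the start site, with n promoters per class. Red names place the lineage genes by their canonical promoter (ELF5, starred, by its only RefSeq promoter here), and the share called in all 6 libraries is 0.774% in the lowest class, 64.9% at 20 to 29 CpG and 63.2% in the highest class.

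Short sequence motifs were searched on both strands of the same 300 bases, with positions counted from 0 at the start site. AGR2 holds a GATA motif (AGATAA) at position -119 and an E-box (CAGGTG) at 44, and these occur in 10.3% and 20.6% of all promoters. AGR3 holds a TATA box (TATAAA) at -31, which 11.5% of promoters share, the nuclear receptor site AGGTCA at -225 and -55 (13.8%) and CAGGTG at -68 and -51, and the sites at -55 and -51 overlap. FOXA1 holds CAGGTG at -122, and ELF5 holds a forkhead motif (TGTTTAC, 3.42%) at -193 and CAGGTG at 1. TP63 holds TATAAA at 44, and so does GATA3 at -205 from its start site 8049854. At the GATA3 start site 8060457 an AP-1 motif (TGANTCA, 7.71%) lies at -8. The full estrogen response element, GGTCA and TGACC with 3 bases between, was found in 0.0570% of promoters and in none of those of the 8 matched genes. The canonical promoters of ESR1, PGR and GATA3 held no match to any of the 7 motifs. A match describes letters in this window only.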

How the data were processed

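Peaks were called by the authors in each CUT&RUN library separately, with MACS2 v2.2.7.1 named for H3K4me3 and SICER2 for H3K27me3, although the deposited H3K27me3 lists have the MACS2 broad layout. Each deposited list gives peak positions on hg38 (all chromosome ends fit), the fold enrichment, a ratio over local background, and the −log10 p and −log10 q of the caller, unscaled between libraries. No q-value exceeded 0.01 in the narrow or 0.1 in the broad lists. The aligner, duplicate handling and use of IgG as a control are not given in the sources used here.

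Peaks on chromosomes 1 to 22, X and Y were merged over the 6 libraries of a mark (overlap of at least 1 bp, at least 2 libraries) and assigned within 3 kb of any GENCODE 44 start site. Covered length was compared with limma 3.58.1 (R 4.3.3, trend, log2 with 100 bp added) over all genes, with single values compared by exact permutation tests. Reads at narrow summits and their background were solved from the fold and p-value with a tolerance of 0.1% over peaks whose −log10 p did not exceed 250, which gave whole reads for 100% of them. This step was chosen after the data were seen and holds only if no control library set the background. The limma step was tested on simulated data.

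The genes and lists were chosen with earlier results of these data known. Beside the 10 genes, those named were genes past the limma threshold, with a region in every library of 1 group and in no library of its counterpart, called for H3K27me3 in all 6 libraries (met by no gene of the lists), or among the 3 with the widest H3K4me3 of each list. Genes named outside this rule were chosen after their values were seen (KRT14, ANKRD30A, CITED1, KIT, LTF and PROM1) or belong to the cell type markers. The alternatives tried were a 1 kb window, a q-value limit of 1e-05, equal numbers of peaks per list, 10 bp added, no filter, quantile normalization, a peak covering at least 50% of a region, removal of IgG regions, a replicate block and each replicate left out. Cells were seeded as biological triplicates. Scripts ran in Python 3.11.15 with scipy 1.17.1, numpy 2.4.6 and matplotlib 3.10.9. Expression, quantitative PCR and DNA methylation data were not analysed here.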

Additional observations from a re-analysis of the deposited data

How the results depend on the processing

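No gene of the 10 passed the limma threshold in any of the 74 alternative values computed for their log2 differences. The count of genes over the threshold was 0 for H3K4me3 and 18, all longer in OA, after quantile normalization, which moved the median difference from 0.16 to -0.05. For H3K27me3 the single call (SYT2) was lost (0) under the replicate block, the same number of peaks per list, the 1 kb window and 10 bp added, and ranged from 0 to 1 as replicates were left out. The replicate block left 0 calls for H3K4me3. Deviations of same-numbered vehicle and OA libraries correlated at -0.02, 0.19 and -0.11 for H3K4me3 and 0.11, 0.04 and 0.02 for H3K27me3, and 2 and 3 of 6 libraries correlated best with their own number, so the numbers were not taken as pairs.

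Directions turned for GATA3 (-0.04 without vehicle replicate 3), for TP63 (-0.61 with the same number of peaks, -0.68 in the 1 kb window, -0.71 after quantile normalization, and -0.87 and -0.89 as vehicle replicate 3 and OA replicate 2 were left out), for H3K27me3 at ESR1 (-0.28 without vehicle replicate 1 or 3 and -0.76 without OA replicate 1) and at PGR (0.08 without OA replicate 3). As replicates were left out the differences ranged from -0.04 to 0.85 for GATA3, from -0.89 to 1.22 for TP63, from -0.76 to 0.86 for ESR1 and from -1.86 to 0.08 for PGR. The cause was not tested. FOXA1 kept a positive difference in every alternative run. For AGR2, whose vehicle libraries are all at 0 bp so that the sign was fixed, the difference ranged from 1.66 to 3.42 as replicates were left out and was 1.11 after quantile normalization.

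Of the 10 genes, the 2 with H3K4me3 in all vehicle libraries and the 2 in all OA libraries became 1 and 1 where a peak had to cover at least 50% of the region, and ranged from 2 to 3 and from 2 to 4 as replicates were left out, with 4 (GATA3, FOXA1, AGR2 and TP63) without OA replicate 1. The 1 gene with H3K27me3 in all vehicle libraries became 0 at a q-value of at most 1e-05, with the same number of peaks and with 50% cover, and ranged from 0 to 1 over the replicates left out. At that q-value and with the same number of peaks no H3K27me3 value of the 10 genes could be tested.

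Peak lists hold calls and not signal, so a gene without a peak was below the threshold of that library and was not shown to lack the mark. With 3 libraries a group, exact tests of single values could not go below p = 0.1.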
